A study of Mus musculus with 23 samples.

Results

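Genes of the cell cycle and of mitosis were followed as a list of 44 members, out of the 47311 genes counted in tumor-adjacent mammary fat pad of 23 female C57BL/6J mice. The members are a named list of genes of DNA replication, cell cycle control and chromosome segregation. All 44 passed the filter on low counts that left 19882 genes for testing. Obese mice received food with 60% of its energy from fat between 8 and 26 weeks of age, and lean mice are labelled as receiving food with 10%, although the treatment text given for lean samples names only the high-fat food. Every mouse carried an orthotopic tumor grown from 250000 cells of E0771-luciferase, a syngeneic mammary carcinoma line, put into the fourth mammary gland in 25% matrigel. Antibodies were injected intraperitoneally (200 µg in 50 µl) from day 3, every 3 days up to sacrifice at day 21. They were anti-PD-1, which blocks an inhibitory receptor on T cells, or IgG2a, its isotype control. Obese mice numbered 8 under anti-PD-1 and 5 under IgG2a, lean mice 5 under each antibody, and each mouse gave 1 library of between 49438121 and 77369057 estimated counts. No batch is labelled.

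A cell that divides copies its DNA in S phase and separates the copies in mitosis. E2F transcription factors switch on the replication genes at the end of G1, and a later set of genes, among them the B-type cyclins, the mitotic kinases and the spindle proteins, is switched on in G2 with the help of the DREAM/MuvB complexes, B-Myb and FOXM1. Mature fat cells do not divide, so such transcripts in fat tissue come mostly from progenitor, endothelial and immune cells, from duct epithelium, from lymphoid tissue where a lymph node lies in the pad, and from tumor cells where these are present.

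The promoters of the late genes are known for CCAAT boxes and for the cell cycle homology region, and those of many replication genes for E2F sites. Promoter windows of 300 bases, from 250 bases before to 50 after the RefSeq start (GRCm38.p6), were found for 37 of the 44 members (39 windows). Only the 250 bases before the start were searched for motifs, in the members and in all windows alike. There the letters CCAAT, on either strand, occurred in 31 of these 39 windows (79.5%) and in 33.9% of all 32851 windows. The letters TTTGAA, the core of the cell cycle homology region, occurred in 11 of the 39 (28.2%) and in 16.0% of all. The letters GCGGGAA, one form of an E2F site, occurred in 3 of the 39 (7.69%) and in 3.82% of all. These are matches of letters and not measured binding. The 250 bases before the start are shown for 4 members on which the results below turn, 5′ to 3′ on the strand of the gene, with every match to any of the 3 motifs on either strand in capitals.
Mki67, chr7:135716380-135716629, minus strand: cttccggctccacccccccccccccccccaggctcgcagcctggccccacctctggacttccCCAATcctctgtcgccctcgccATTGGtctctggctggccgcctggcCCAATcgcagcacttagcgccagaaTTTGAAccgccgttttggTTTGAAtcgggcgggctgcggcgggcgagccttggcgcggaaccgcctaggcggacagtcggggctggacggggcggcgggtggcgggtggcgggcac
Top2a, chr11:99024190-99024439, minus strand: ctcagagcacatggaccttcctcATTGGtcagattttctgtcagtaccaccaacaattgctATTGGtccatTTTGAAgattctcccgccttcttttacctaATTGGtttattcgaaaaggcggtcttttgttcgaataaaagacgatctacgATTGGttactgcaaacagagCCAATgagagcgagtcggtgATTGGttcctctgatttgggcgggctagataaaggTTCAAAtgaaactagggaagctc
Cenpf, chr1:189688087-189688336, minus strand: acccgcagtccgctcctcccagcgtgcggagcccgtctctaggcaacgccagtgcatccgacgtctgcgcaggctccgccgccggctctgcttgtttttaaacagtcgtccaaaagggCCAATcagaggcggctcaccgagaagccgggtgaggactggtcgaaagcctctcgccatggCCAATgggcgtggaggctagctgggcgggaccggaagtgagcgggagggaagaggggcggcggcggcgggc
Rrm1, chr7:102441445-102441694, plus strand: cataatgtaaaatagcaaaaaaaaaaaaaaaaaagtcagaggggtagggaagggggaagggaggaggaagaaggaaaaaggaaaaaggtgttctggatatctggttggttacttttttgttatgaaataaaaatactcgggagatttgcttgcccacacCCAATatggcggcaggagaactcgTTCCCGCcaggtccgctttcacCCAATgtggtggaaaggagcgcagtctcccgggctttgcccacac
In these stretches Mki67 held 3 CCAAT and 2 TTTGAA matches, Top2a held 6 and 2, Cenpf held 2 CCAAT matches and neither other motif, and Rrm1 held 2 CCAAT matches and 1 E2F match. CCAAT was thus the motif that all 4 shared, while the E2F letters were found in the ribonucleotide reductase gene alone.

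The libraries were not alike in the tissue they held, and the list moved with those differences, so they are given first. CPM are counts scaled to library size, without TMM at the thresholds of 10 CPM and with it elsewhere. Glycam1, a mucin of lymph node vessels, reached 10 CPM in 11 libraries, which are called libraries with lymph node. Their lowest scaled value was 124 CPM (lean anti-PD-1 5), and the highest elsewhere was 0.46 (obese IgG2a 5). Among lean mice they were 4 of 5 libraries under IgG2a and 3 of 5 under anti-PD-1, and among obese mice 2 of 5 and 2 of 8. Hmga2, an architectural chromatin protein of embryonic cells and of many tumors, reached 10 CPM in 3 libraries, all obese IgG2a (number 2 at 94.2, number 4 at 19.0 and number 5 at 170.0 CPM). The nearest library below the threshold was obese anti-PD-1 8, at 5.84 CPM with TMM and 6.49 CPM without. The other 9 libraries had neither: 1 lean IgG2a, 2 lean anti-PD-1 and 6 obese anti-PD-1. No obese IgG2a library was free of both, so obesity under IgG2a and the antibody in obese mice cannot be examined in such libraries. The summed CPM of 8 B cell genes was 419 to 3506 with lymph node, 7.54 to 26.8 with Hmga2 and 2.47 to 4.81 with neither, and that of 8 T cell genes was 151 to 904, 6.92 to 13.3 and 5.94 to 15.8. The sum of 7 tumor-like genes, which include keratins of normal ducts, overlapped between the sets (304 to 1257, 454 to 1448 and 154 to 2079 CPM). The sum of 8 adipocyte genes was 4752 CPM or more in every library, as the tissue label says. Liver genes were high in obese IgG2a 5 (a sum of 8074 CPM over 5 genes, against 222 or less elsewhere). The libraries with lymph node, with Hmga2 or with neither are sets made from the data, and their levels are described without a test. In such bulk tissue, more cycling cells and more RNA per cycling cell cannot be told apart.

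**Figure D1:**
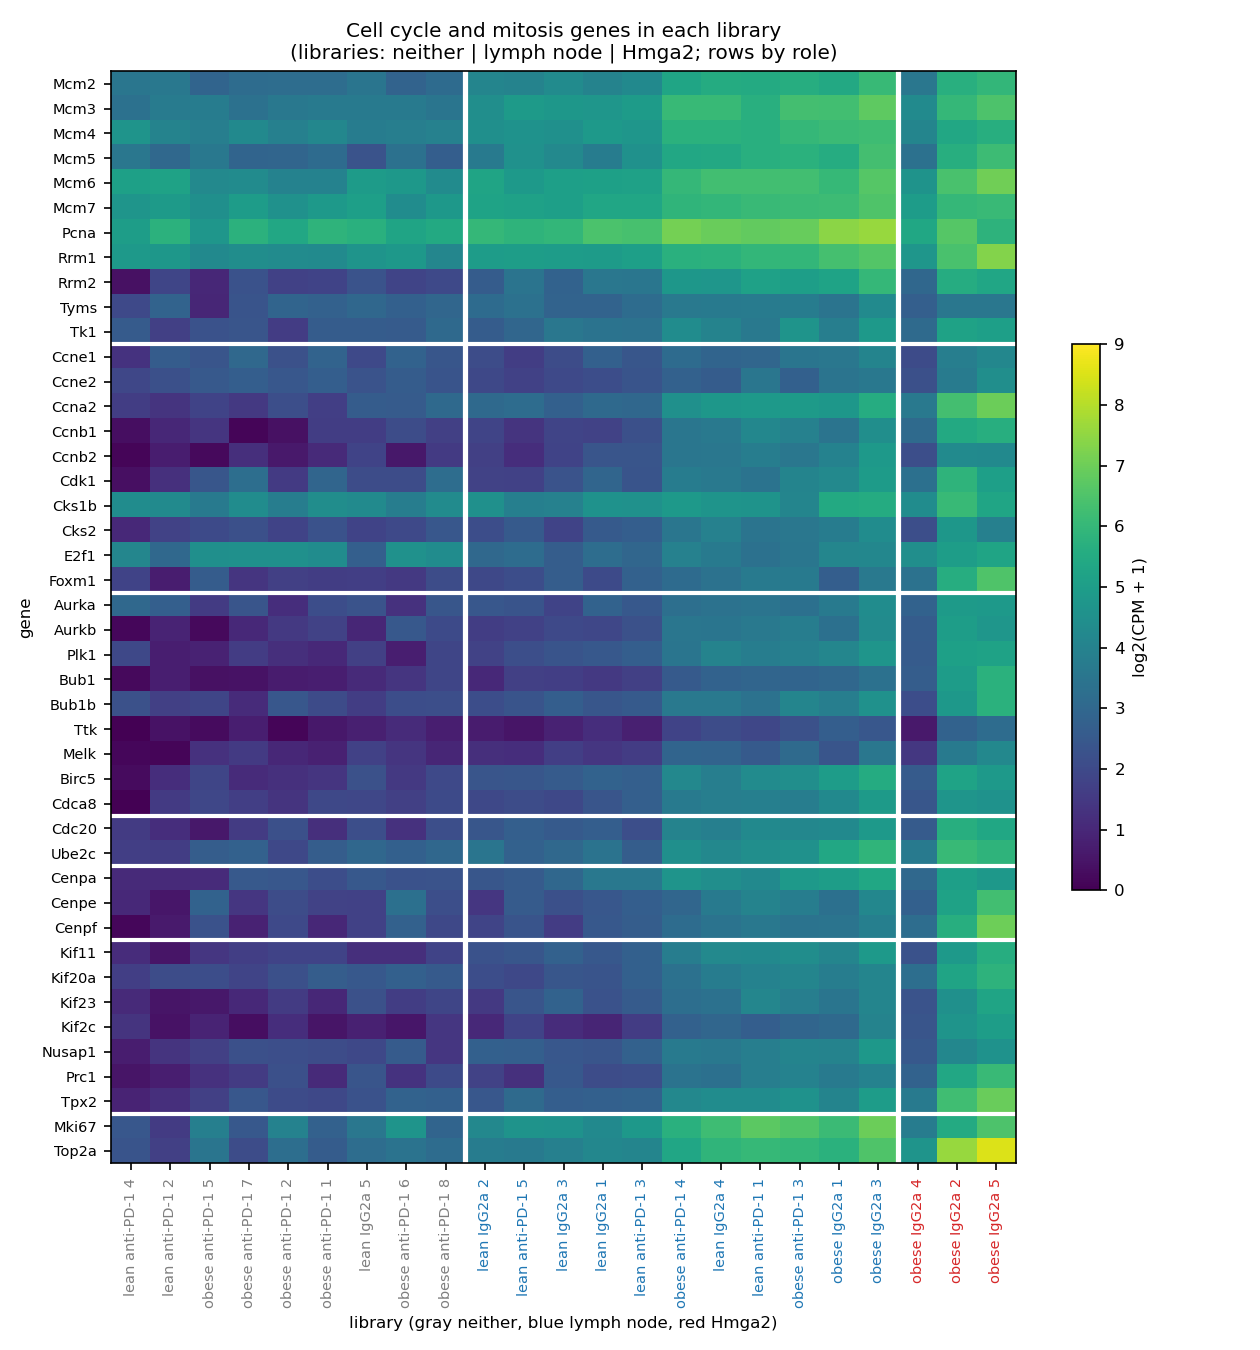
Levels of the 44 genes (rows, ordered by role, white lines between roles) as log2(CPM + 1) in each of the 23 libraries (columns, colored names: gray with neither, blue with lymph node, red with Hmga2; within a set by rising mean). The 9 libraries with neither are darkest in most rows, the libraries with lymph node divide into a darker set of 5 and a lighter set of 6, and obese IgG2a 2 and 5 are lightest among the mitotic rows.

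Each library's mean log2(CPM + 1) over the 44 members summarises the list. It was 1.87 to 2.62 in the 9 libraries with neither, 2.71 to 4.99 in the 11 with lymph node, and 3.13, 5.24 and 5.52 in obese IgG2a 4, 2 and 5. The sets of 9 and 11 thus did not overlap, nor did the 9 and the 3. Taken gene by gene, the median CPM of the libraries with lymph node was above that of the libraries with neither for 43 of 44 members, the exception being E2f1, with a median ratio over members of 4.24. For the 3 libraries with Hmga2 it was above for all 44, with a median ratio of 10.3. For 9 members (Mcm2, Mcm3, Mcm5, Pcna, Rrm1, Rrm2, Birc5, Kif11 and Top2a) every library with lymph node stood above every library with neither, and 4.55% of all genes tested did the same. For 24 members every library with Hmga2 stood above every library with neither, against 3.62% of all genes tested.

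Libraries with lymph node were not uniform among themselves. Cd79a, a part of the B cell receptor, was at 137 to 237 CPM in 5 of them, all lean, and the member mean was 2.71 to 3.14 there. In the other 6, of which 4 were obese, Cd79a was at 524 to 887 CPM and the member mean was 4.11 to 4.99. The list was thus higher in the node libraries that held more B cell transcript, without overlap; the division was chosen after the values were seen, and its part in the comparisons of obese and lean mice was not tested beyond the fits with node status below.

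Mki67 encodes the Ki-67 protein that coats mitotic chromosomes and is the usual marker of cycling cells (ENSMUSG00000031004, GRCm38 chr7:135689784-135716361, minus strand). It was at 18.5, 17.5, 22.9, 72.9 and 10.9 CPM in lean IgG2a libraries 1 to 5. In lean anti-PD-1 libraries 1 to 5 it was at 106, 1.97, 26.9, 4.39 and 23.5 CPM. In obese IgG2a libraries 1 to 5 it was at 68.6, 44.7, 125, 12.6 and 89.4 CPM. The 8 obese anti-PD-1 libraries had a lowest value of 4.60, a median of 14.3 and a highest of 90.7 CPM. The 4 groups overlapped, and the highest value of every group belonged to a library with lymph node and with Cd79a at 524 CPM or more.

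Top2a encodes topoisomerase II alpha, which untangles the copied chromosomes (ENSMUSG00000020914, chr11:98992943-99024189, minus strand). It was at 16.9, 12.9, 14.2, 58.2 and 8.30 CPM in lean IgG2a libraries and at 63.8, 2.29, 16.3, 4.08 and 12.1 CPM in lean anti-PD-1 libraries. Obese IgG2a libraries had 52.7, 193, 90.4, 24.2 and 372 CPM. Obese anti-PD-1 libraries ranged from 3.28 over a median of 9.08 to 61.7 CPM. The 2 values above 100 CPM were those of obese IgG2a 2 and 5, both with Hmga2.

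These 2 markers were not in the same proportion everywhere. Measured per length on the full-length coding transcript of each (Top2a over Mki67, deposited TPM), the ratio was 0.63 to 1.16 in the 11 libraries with lymph node, with a median of 1.01. It was 7.57, 3.30 and 7.78 in obese IgG2a 2, 4 and 5. The 9 libraries with neither ran from 0.78 to 2.31, with a median of 1.44, at low levels (133 estimated counts of the Top2a transcript in the library of the highest ratio). The 3 libraries with Hmga2 thus lay above the other 20, while the libraries with lymph node kept near equal TPM over their whole range of levels.

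**Figure D2:**
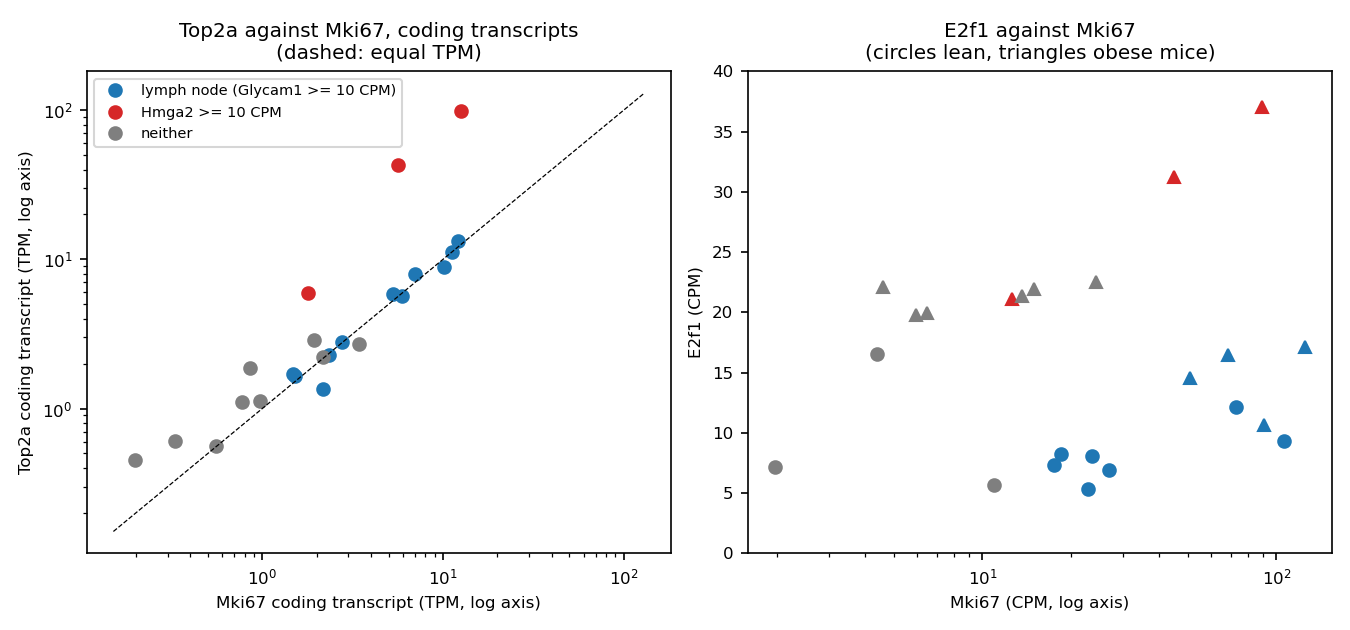
Left, TPM of the full-length coding transcript of Top2a against that of Mki67, both log axes, 1 point per library, dashed line at equal TPM; the 3 Hmga2 libraries (red) lie above the line at ratios of 3.30 to 7.78 and the libraries with lymph node (blue) along it. Right, E2f1 (CPM) against Mki67 (CPM, log axis), circles lean and triangles obese mice; every obese library has at least 10.6 CPM of E2f1, and all but 2 of the lean libraries have 9.28 CPM or less.

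The same difference ran through the list by role. As a ratio of the median of the 3 Hmga2 libraries to the median of the 11 node libraries, the replication and nucleotide genes had a median of 1.26 over 11 members. Pcna, the sliding clamp of the DNA polymerases, was lowest at 0.49, and Mcm4, of the replicative helicase, was at 0.82. The median ratio was 2.89 over the 10 cyclins, Cdk1 partners and transcription factors, 2.85 over the 9 mitotic kinases, checkpoint and passenger proteins, 3.95 over the 7 kinesins and spindle proteins, and 5.13 over the 3 centromere proteins. The highest single values were those of Foxm1 (8.10), the transcription factor of late cell cycle genes, Bub1 (6.29), a kinase of the spindle checkpoint, and Cenpf (6.00), a kinetochore protein of G2 and mitosis. Of the 44 members, 41 were higher in the Hmga2 libraries by this ratio, and the others were Pcna, Mcm4 and Mki67 (0.88). Of the roles, the replication and nucleotide genes thus had the lowest median ratio. The 3 Hmga2 libraries were all obese IgG2a, while 7 of the 11 node libraries were lean, so the ratio also compares weight and antibody groups. The libraries with Hmga2 were not alike either. The mean over the members was 3.13 in obese IgG2a 4, below the node median of 4.11.

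On the TPM scale, which allows levels of different genes to be compared, Pcna was the highest member with lymph node (a median of 84.7 TPM) and with neither (45.9 TPM). In the Hmga2 libraries Ube2c, the ubiquitin-conjugating enzyme of the anaphase-promoting complex, was highest (109 TPM), followed by Cdk1 (99.9 TPM), the kinase that drives mitosis. Cks1b, a small protein that binds cyclin-dependent kinases, was second in libraries with neither (42.2 TPM) and had among the smallest ratios in CPM, 1.22 for node over neither and 2.04 for Hmga2 over neither. Ttk, a checkpoint kinase, was the lowest member in both libraries with lymph node and libraries with Hmga2 (0.96 and 2.92 TPM).

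Obese and lean mice were first compared under the isotype control, where the question is what obesity did to the fat pad beside the tumor. In edgeR's quasi-likelihood test, 9 of 44 members rose in obese IgG2a mice (adjusted p under 0.05), against 2.68% of all genes tested, and none fell. All 44 log2 fold changes were positive, from 0.52 (Tyms) to 3.29 (Cenpf), with a median of 1.89 where the median of all genes was 0.12. The genes that rose were of the entry into S phase (E2f1, Ccne2), of Cdk1 and its control (Cdk1, Cks1b, Foxm1), of mitosis (Aurka, Kif20a, Cenpf) and of mitotic exit (Ube2c). None of the 11 replication and nucleotide genes passed, and their median log2 fold change was 1.12; Rrm1, at 1.40 (SE 0.43), had an adjusted p of 0.0531. Mki67 (1.26, SE 0.92, adjusted p = 0.526) and Top2a (2.73, SE 0.96, adjusted p = 0.0985) did not pass.

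E2f1, the transcription factor at the gate of S phase, gave the smallest p of the list (ENSMUSG00000027490, chr2:154559407-154569892, minus strand). It was at 8.27, 7.32, 5.32, 12.2 and 5.65 CPM in lean IgG2a and at 16.4, 31.2, 17.1, 21.1 and 37.1 CPM in obese IgG2a libraries. The 2 groups did not overlap. The rise was 3.17-fold (log2 1.67, SE 0.30, adjusted p = 0.00217).

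Ccne2, a cyclin E that acts with Cdk2 at the start of S phase, was at 3.33, 2.85, 2.97, 5.08 and 3.97 CPM in lean and at 9.97, 12.2, 11.1, 3.63 and 20.8 CPM in obese IgG2a libraries. The groups overlapped only through obese IgG2a 4. Its log2 rise was 1.66 (SE 0.40, adjusted p = 0.0162), a 3.17-fold change. Its reads cannot be told from those of Ints8, which overlaps it on the opposite strand at up to 32.9 CPM, if they fall in the shared part.

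Cks1b was at 22.9, 22.1, 14.6, 24.1 and 18.8 CPM in lean and at 43.7, 65.5, 44.9, 19.6 and 38.4 CPM in obese IgG2a libraries. Here too only obese IgG2a 4 fell within the lean range. The log2 rise was 1.05 (SE 0.27, adjusted p = 0.0239).

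Cdk1 (ENSMUSG00000019942, chr10:69335146-69352938, minus strand) was at 6.73, 2.44, 3.92, 11.6 and 3.31 CPM in lean and at 18.0, 56.5, 29.6, 8.91 and 32.8 CPM in obese IgG2a libraries, a 5.20-fold rise (log2 2.38, SE 0.71, adjusted p = 0.0483). Its partner Ccnb1, cyclin B1 (ENSMUSG00000041431, chr13:100778650-100786570, minus strand), was at 2.40, 2.63, 2.59, 11.5 and 2.09 CPM and at 10.1, 43.7, 20.7, 7.62 and 49.3 CPM. That log2 difference of 2.63 (SE 1.09) did not pass (adjusted p = 0.168). In both genes the high lean value was that of lean IgG2a 4 and the low obese value that of obese IgG2a 4.

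Foxm1 was at 3.08, 2.91, 5.34, 9.61 and 2.21 CPM in lean and at 5.43, 48.3, 11.4, 9.58 and 91.0 CPM in obese IgG2a libraries (log2 2.84, SE 0.81, adjusted p = 0.0397). The high values were those of the Hmga2 libraries 2 and 5, while the node libraries of obese mice, 1 and 3, lay within or just above the lean range. Cenpf (ENSMUSG00000026605, chr1:189640606-189688086, minus strand) was at 4.51, 2.56, 2.05, 9.82 and 2.31 CPM and at 10.0, 48.6, 13.7, 8.25 and 127 CPM. Its log2 rise of 3.29 (SE 0.98, adjusted p = 0.0495) was the largest of the list and showed the same 2 high libraries.

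Aurka, the Aurora A kinase of centrosomes and spindle poles (ENSMUSG00000027496, chr2:172356190-172370535, minus strand), was at 6.12, 4.47, 2.55, 9.61 and 3.99 CPM in lean and at 11.7, 28.8, 19.9, 6.04 and 27.5 CPM in obese IgG2a libraries (log2 1.81, SE 0.54, adjusted p = 0.0490). Kif20a, a kinesin of the cleavage furrow, was at 4.07, 3.32, 4.36, 12.7 and 4.54 CPM and at 13.2, 36.8, 16.0, 8.61 and 54.8 CPM (log2 2.16, SE 0.62, adjusted p = 0.0397). Ube2c was at 9.79, 10.2, 7.29, 17.5 and 6.94 CPM and at 41.4, 66.4, 57.9, 12.2 and 56.5 CPM (log2 2.18, SE 0.64, adjusted p = 0.0446). In all 3 genes 4 of 5 obese IgG2a libraries lay above every lean IgG2a one, those with lymph node included, and obese IgG2a 4 did not. Ube2c shares its locus with the muscle gene Tnnc2 on the other strand (up to 276 CPM in some libraries), and Kif20a with Cdc23 (up to 53.9 CPM).

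Mcm5, of the replicative helicase (ENSMUSG00000005410, chr8:75109569-75128439, plus strand), stands for the replication genes that did not pass. It was at 12.7, 12.0, 18.0, 42.6 and 3.97 CPM in lean and at 46.2, 48.9, 78.4, 9.24 and 70.6 CPM in obese IgG2a libraries, a log2 difference of 1.50 (SE 0.73, adjusted p = 0.255). Rrm2, the inducible subunit of ribonucleotide reductase (ENSMUSG00000020649, chr12:24708241-24714146, plus strand), was at 10.9, 5.09, 6.16, 25.4 and 3.90 CPM and at 35.9, 46.2, 62.4, 7.02 and 39.0 CPM (log2 1.89, SE 1.00, adjusted p = 0.317). In both, 4 of 5 obese IgG2a libraries exceeded all lean IgG2a ones and obese IgG2a 4 did not.

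**Figure D3:**
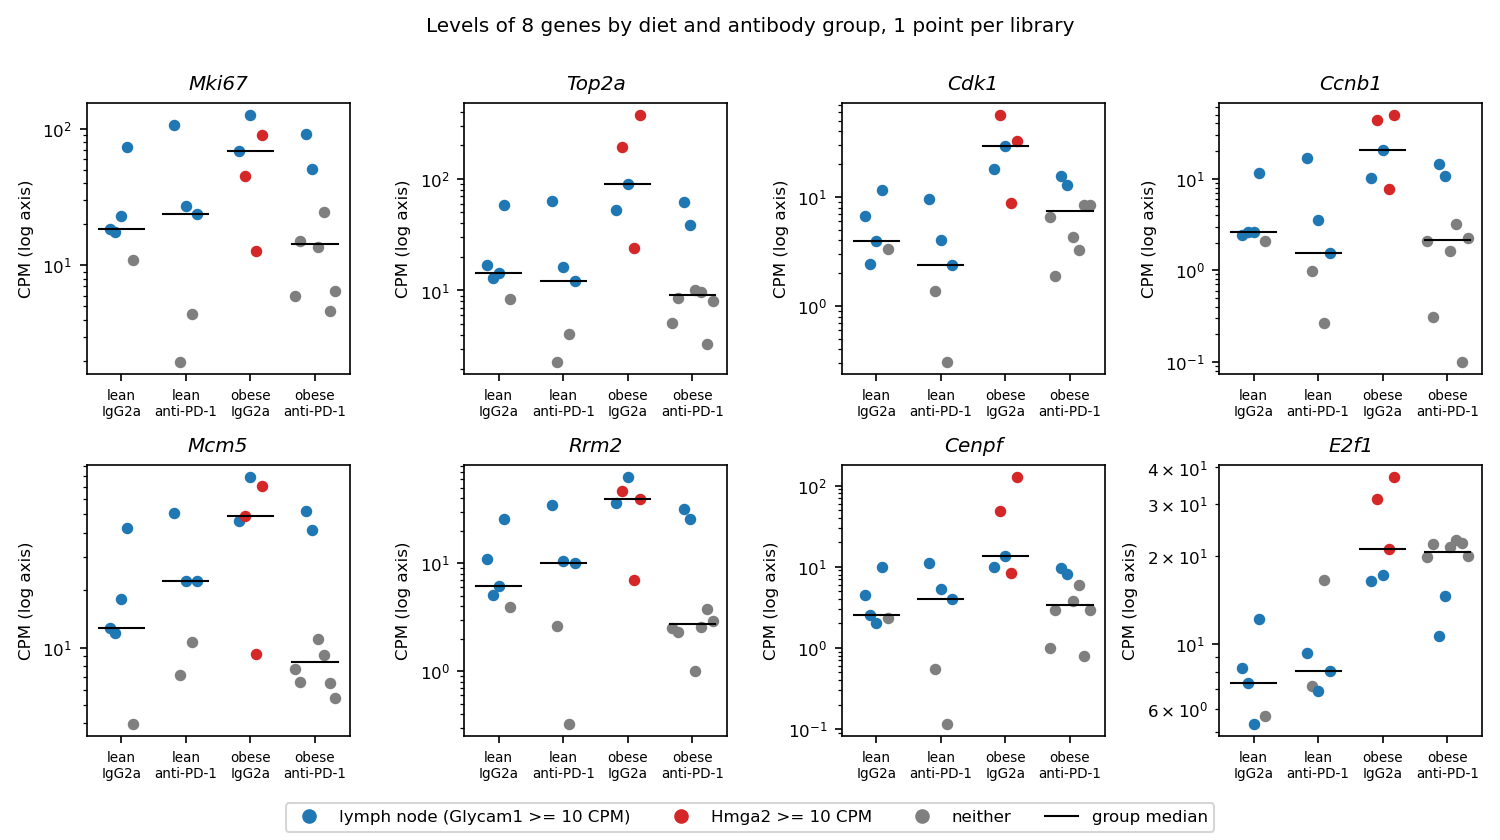
CPM (log axes) of Mki67, Top2a, Cdk1, Ccnb1, Mcm5, Rrm2, Cenpf and E2f1 in the 4 groups, 1 point per library (blue with lymph node, red with Hmga2, gray with neither), black line at the group median. In obese IgG2a no point is gray, while 6 of 8 obese anti-PD-1 points are; E2f1 alone has its gray obese points, 19.8 to 22.5 CPM, above the blue ones.

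The groups of that comparison differed in tissue: 4 of 5 lean and 2 of 5 obese IgG2a libraries held lymph node, and 3 obese and no lean ones had Hmga2. The summed CPM of 5 neutrophil genes was 4.51 to 10.1 in the lean and 19.4 to 137 in the obese IgG2a libraries, and that of 9 mammary epithelium genes 675 to 1215 in the lean and 251 to 377 in the obese ones, both without overlap. The sum of 8 macrophage genes was 332 to 462 in the lean and 417 to 847 CPM in the obese ones. The part of these cells in the rise was not tested. With lymph node status as a covariate, 43 of 44 members rose (7.49% of all genes tested rose in that fit), all but Tyms, and the median log2 fold change was 2.82. Top2a then rose by 4.16 (SE 0.92, adjusted p = 0.00473) and Mki67 by 2.32 (SE 0.69, adjusted p = 0.0266). Within the 11 libraries with lymph node, where 4 lean and 2 obese IgG2a libraries are compared, 7 members rose (3.1% of all genes tested): Ube2c, Birc5, Rrm1, Pcna, Cks1b, Nusap1 and Mcm3. The median log2 fold change was 1.47, all 44 were positive, and the 2 obese libraries were both among the 6 with more B cell transcript.

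Without the 3 Hmga2 libraries the obese IgG2a side is libraries 1 and 3, the same 2 as in the fit within node libraries. With node status as a covariate, 6 members then rose (1.31% of all genes tested): Ube2c, E2f1, Cks1b, Rrm1, Mcm5 and Ccne2, with a median log2 fold change of 1.33. Foxm1 (0.60, SE 0.61) and Cenpf (1.06, SE 0.82) did not pass in that fit, with adjusted p of 0.597 and 0.470. Without those 3 libraries and with no covariate, 0 members passed, where 0.268% of all genes tested rose, 16 members had an unadjusted p under 0.05, and the median was 1.68. The count also turned on single lean and obese libraries. It was 2 when lean IgG2a 1, 2, 3 or 5 or obese IgG2a 2 or 5 was left out, 17 without lean IgG2a 4 and 15 without obese IgG2a 4. The share of all genes that rose was 0.768% to 1.38% in the fits that gave 2, 2.37% in the one that gave 17 and 3.4% in the one that gave 15. E2f1 kept its call in 19 of 21 alternative fits; in the other 2, the node libraries alone and the fit without the Hmga2 libraries, its adjusted p was 0.0577 and 0.0841.

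**Figure D4:**
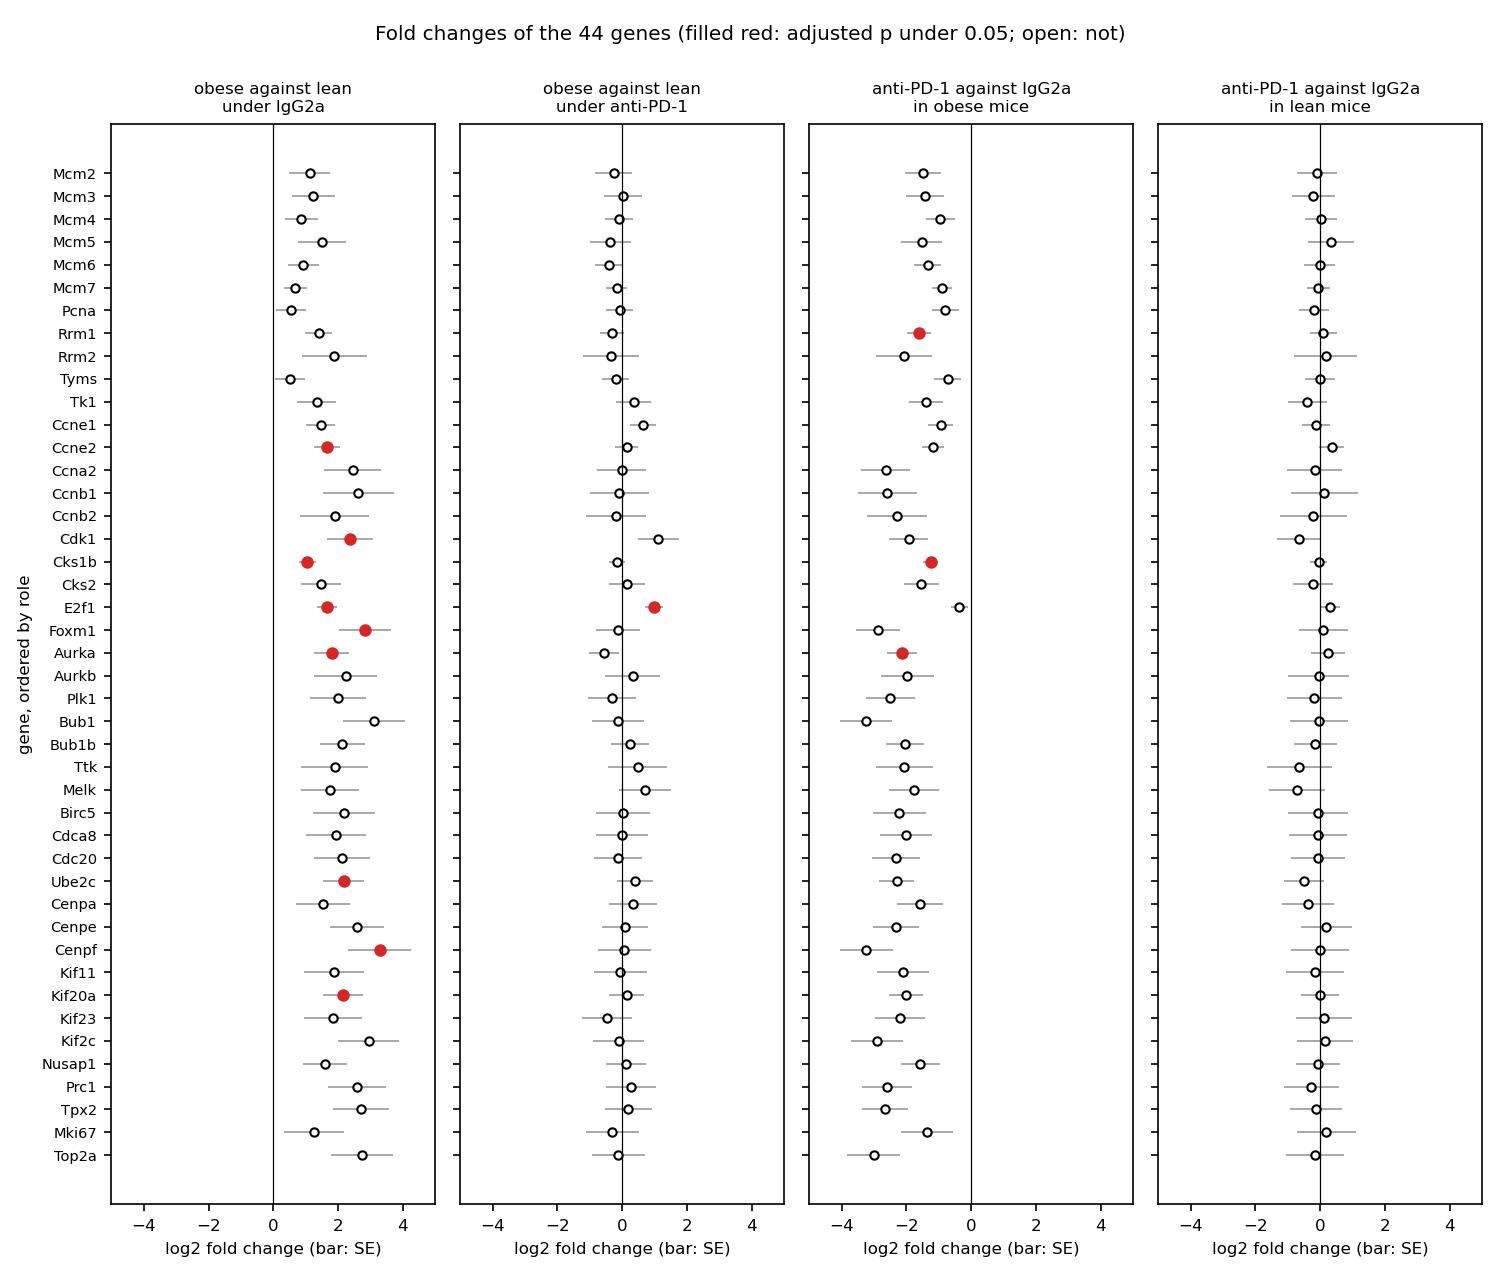
Log2 fold changes (points) with their standard errors (bars) of the 44 genes, ordered by role, in 4 comparisons; filled red points have an adjusted p under 0.05 in edgeR's test. All points lie right of 0 for obese against lean under IgG2a (9 filled) and left of 0 for anti-PD-1 against IgG2a in obese mice (3 filled), and the other panels center near 0 (1 and 0 filled).

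Other genes of the same processes, taken from 6 lists of 108 genes, gave 13 called upward and none called downward, with a median log2 fold change of 1.21. Over all genes tested 2.68% rose and 3.12% fell, so a single call in a list of this size is near the background. Of 31 licensing and replication genes, 2 rose, Chaf1a (2.04, SE 0.49, adjusted p = 0.0156), of the histone-depositing CAF-1 complex, and Pola1 (1.29, SE 0.36, adjusted p = 0.0346), the catalytic subunit of DNA polymerase alpha. Of 22 kinetochore, condensin and cohesion genes 1 rose, Sgo2a (3.19, SE 0.79, adjusted p = 0.0191), a protector of centromeric cohesin. Of 21 spindle and cytokinesis genes 4 rose: Anln (3.49, SE 0.69, adjusted p = 0.00437), the anillin of the contractile ring, Tacc3, Gtse1 and Ckap2. Of 13 regulators of mitotic entry and transcription 5 rose, among them Wee1 (1.71), the inhibitory kinase of Cdk1, E2f7 (2.69), E2f8 (4.21) and E2f3 (0.81). Of 10 G1 cyclins, kinases and pocket proteins 1 rose, Cdk6 (1.79, SE 0.48, adjusted p = 0.0299). Of the 11 inhibitors and arrest genes 0 passed in either direction, 3 had an unadjusted p under 0.05 downward, and their median was 0.10.

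Under anti-PD-1, obese and lean mice were compared next. Of the 44 members 1 rose in obese mice, a smaller share than the 5.2% of all genes tested, and none fell. The log2 fold changes ran from -0.56 to 1.11, with a median of -0.04, and 20 were positive. The gene that rose was again E2f1, with 9.28, 7.19, 6.91, 16.5 and 8.07 CPM in lean anti-PD-1 libraries 1 to 5 and 10.6 to 22.5 CPM, with a median of 20.6, in the 8 obese ones. Its log2 fold change was 0.99 (SE 0.28, adjusted p = 0.0249). The groups overlapped only through lean anti-PD-1 4 and the obese node libraries. The call was lost in 6 of 25 alternative fits, among them those without lean anti-PD-1 2, 3 or 5, with an adjusted p of 0.272 at most.

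Lymph node was again uneven, in 3 of 5 lean and 2 of 8 obese anti-PD-1 libraries. With node status as a covariate the count was 1, E2f1 (0.80, SE 0.25, adjusted p = 0.0377), where 4.9% of all genes tested rose, and the median log2 fold change was 0.53. Within the libraries with lymph node, 3 lean against 2 obese, 0 members were called, where 0.517% of all genes tested rose. All 44 log2 fold changes were positive in that fit, with a median of 0.79, and 7 had an unadjusted p under 0.05. Both obese libraries were among the 6 with more B cell transcript. Over the 9 libraries with neither, with 2 lean and 6 obese anti-PD-1 libraries, Melk (3.59, SE 1.04, adjusted p = 0.0394), a kinase of proliferating cells, and Cdk1 (2.68, SE 0.81, adjusted p = 0.0479) rose and Mcm6 fell by 0.93 (SE 0.24, adjusted p = 0.0232). In that fit 7.99% of all genes tested rose and 6.14% fell, so 2 and 1 of 44 members are below the background. Cdk1 was there at 1.36 and 0.307 CPM in the lean anti-PD-1 libraries, at 3.31 CPM in the lean IgG2a library with neither, and at 1.89 to 8.53 CPM in the obese mice, so that lean and obese libraries overlapped. Of the 108 other pathway genes 2 rose over all libraries, a smaller share than the 5.2% of all genes tested: Spc25 (1.39, SE 0.42, adjusted p = 0.0364), of the kinetochore, and Rbl2 (0.56, SE 0.14, adjusted p = 0.0161), the pocket protein of resting cells.

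E2f1 was the member whose median was lower with lymph node than with neither (a ratio of 0.47), but these sets mix weight groups in unequal shares, 7 of 11 libraries with lymph node being lean and 6 of 9 with neither obese. In lean mice it was at 5.32 to 12.2 CPM with lymph node (median 8.07) and at 5.65, 7.19 and 16.5 CPM with neither, so that the node median was not the lower one. In obese mice it was at 10.6 to 17.1 CPM in the 4 libraries with lymph node, 19.8 to 22.5 CPM in the 6 with neither and 21.1 to 37.1 CPM in the 3 with Hmga2. In the obese anti-PD-1 libraries the 6 without lymph node had more E2f1, and less Mki67, than the 2 with it, at 10.6 and 14.6 CPM of E2f1. By TPM it ranked 4th of the 44 members with neither and 33rd with lymph node.

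In obese mice the antibody was compared with its control, which asks what PD-1 blockade did to the obese fat pad. Of the 44 members 3 fell under anti-PD-1 and none rose, where 0.533% of all genes tested fell. All 44 log2 fold changes were negative, from -0.36 (E2f1) to -3.25 (Bub1), with a median of -2.02, and 40 had an unadjusted p under 0.05. The genes that fell were Cks1b (-1.25, SE 0.24, adjusted p = 0.0328), Aurka (-2.13, SE 0.47, adjusted p = 0.0436) and Rrm1 (-1.61, SE 0.37, adjusted p = 0.0498). This comparison shares the obese IgG2a libraries with the first one, so the 2 sets of fold changes are not independent.

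In obese anti-PD-1 libraries Cks1b was at 12.1 to 28.4 CPM with a median of 17.8, and 4 of 5 obese IgG2a libraries exceeded them all. Aurka was at 1.26 to 8.93 CPM with a median of 3.77, again below 4 of the 5. Rrm1, the large subunit of ribonucleotide reductase (ENSMUSG00000030978, chr7:102441695-102469771, plus strand), was at 80.6, 83.5, 95.4, 25.5 and 159 CPM in obese IgG2a and at 16.6 to 61.6 CPM, with a median of 19.6, in obese anti-PD-1 libraries. In all 3 genes obese IgG2a 4, the library with the least Hmga2 of its set, lay within the anti-PD-1 range.

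The remaining genes followed by library gave the same order without passing. Cdk1 had a median of 7.48 CPM (1.89 to 15.5) in obese anti-PD-1 libraries, with a log2 difference of -1.93 (SE 0.60, adjusted p = 0.140). Ccnb1 had a median of 2.16 CPM (0.100 to 14.6), with -2.59 (SE 0.92, adjusted p = 0.213). Cenpf had a median of 3.38 CPM (0.80 to 9.66), with -3.24 (SE 0.82, adjusted p = 0.0666). Mcm5 had a median of 8.44 CPM (5.43 to 52.2), with -1.53 (SE 0.63, adjusted p = 0.288), and Rrm2 one of 2.75 CPM (1.01 to 31.8), with -2.07 (SE 0.86, adjusted p = 0.294). Top2a (-3.01, SE 0.81, adjusted p = 0.0904) and Mki67 (-1.37, SE 0.80, adjusted p = 0.463) were likewise not called. In each gene the upper end was set by the 2 node libraries, obese anti-PD-1 3 and 4.

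Hmga2 moved with this comparison: it reached 10 CPM in 3 of the 5 IgG2a libraries and in 0 of the 8 anti-PD-1 libraries, and lymph node was in 2 of 5 and 2 of 8. With node status as a covariate 34 members fell (2.69% of all genes tested), and the median was -2.27. Among the libraries without lymph node 36 fell (3.32% of all genes tested), with a median of -3.05, and there the obese IgG2a libraries are exactly the 3 with Hmga2. Within the libraries with lymph node, 2 against 2 in obese mice, 0 members were called, 1 had an unadjusted p under 0.05, and the median was -0.39. No gene at all was called in that fit (0% of all genes tested). Without the Hmga2 libraries and with no covariate 3 members fell, where 3.08% of all genes tested fell. Of the members 23 had an unadjusted p under 0.05, and the median was -1.67. The obese IgG2a libraries left were the 2 with lymph node, while 2 of 8 under anti-PD-1 held it. With node status as a covariate as well, 0 were called, with 0% of all genes tested, 6 had an unadjusted p under 0.05, and the median was -0.67. Cks1b was then at -1.16 (SE 0.30, adjusted p = 0.171), and Cenpf at -0.01 (SE 0.98).

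The count in obese mice also changed with single libraries. It was 0 without obese anti-PD-1 1, 2, 5, 6, 7 or 8 and without obese IgG2a 2 or 5. It was 15 without obese anti-PD-1 3, 14 without obese IgG2a 4 and 6 without obese IgG2a 1. All genes moved with it: in the fits that gave 0, no gene of all tested fell, except 13 without obese anti-PD-1 8, and in the fits that gave 15, 14 and 6 the shares were 1.07%, 2.6% and 1.45%. Of the 108 other pathway genes 0 were called in either direction, while 67 had an unadjusted p under 0.05 downward and 2 upward. Their medians ran from -2.20 in the spindle and cytokinesis genes and -1.66 in the kinetochore, condensin and cohesion genes to -0.03 in the inhibitors and arrest genes.

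**Figure D5:**
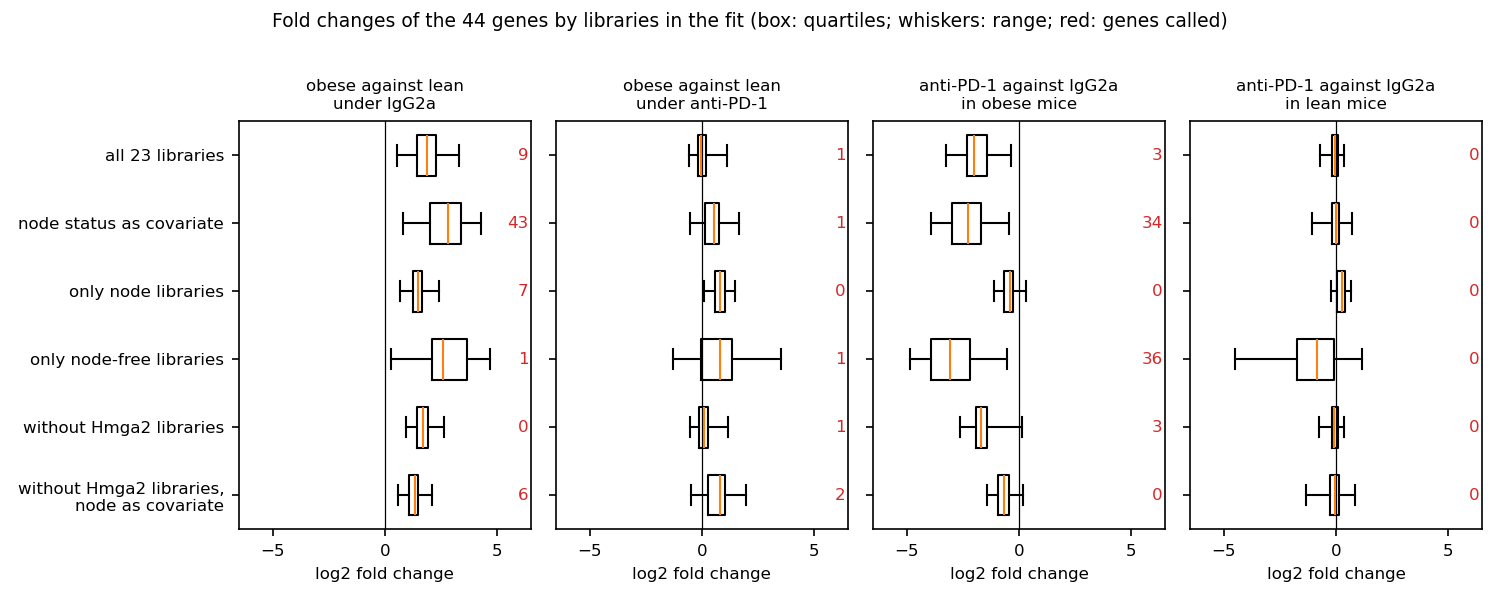
Log2 fold changes of the 44 genes (box, quartiles; line, median; whiskers, range) in 4 comparisons under 6 choices of libraries and covariate, with the number of genes called in red. Under IgG2a all boxes for obesity lie above 0, and the fit without lymph node sets 1 lean library against the 3 with Hmga2. For the antibody in obese mice the median runs from -3.05 in libraries without lymph node to -0.39 in those with it.

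In lean mice the antibody and its control did not separate the list. Of the 44 members 0 were called by edgeR, 0 had an unadjusted p under 0.05, and 0 of all genes tested were called (0%); DESeq2 called 0 members too. The log2 fold changes ran from -0.72 to 0.35, with a median of -0.07. The 3 of smallest p were E2f1 (0.31, SE 0.30), Cdk1 (-0.66, SE 0.68) and Ccne2 (0.35, SE 0.39), each with an adjusted p of 1.00. Cdk1 was at 9.65, 1.36, 4.04, 0.307 and 2.38 CPM and Ccne2 at 10.5, 3.59, 4.04, 2.82 and 2.36 CPM in lean anti-PD-1 libraries, within or around the lean IgG2a ranges. With standard errors up to 1.04 on the log2 scale (Ccnb2), the design could miss sizable changes here. The median also changed sign with the libraries used, at 0.25 within those with lymph node and -0.76 without lean anti-PD-1 1.

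Aurka, Ccnb1, Cenpf, Mcm5 and Rrm2 show how much of the spread in lean anti-PD-1 mice lay between libraries. Aurka was at 10.0, 5.57, 4.61, 7.33 and 4.10 CPM and Ccnb1 at 16.8, 0.983, 3.57, 0.268 and 1.54 CPM. Cenpf was at 11.0, 0.552, 5.35, 0.115 and 4.01 CPM. Mcm5 was at 50.7, 7.22, 22.4, 10.8 and 22.3 CPM and Rrm2 at 34.6, 2.65, 10.5, 0.326 and 9.94 CPM. Number 1, with lymph node and 599 CPM of Cd79a, was highest in all 5 genes, and numbers 2 and 4, with neither, were lowest in all but Aurka.

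Whether the antibody acted differently in obese and lean mice was tested as the interaction. Of the 44 members 0 were called by edgeR, and 0% of all genes tested; 15 members had an unadjusted p under 0.05, all negative, and DESeq2 called 0. The median was -1.89 on the log2 scale. The smallest p belonged to Cks1b (-1.21, SE 0.36), Aurka (-2.37, SE 0.71) and Rrm1 (-1.71, SE 0.56), with adjusted p of 0.404, 0.404 and 0.492. The calls in obese mice and their absence in lean mice are thus not shown to differ.

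Several members share reads or loci with other genes, which the counting of these unstranded libraries may not separate. For 10 members a gene on the opposite strand with at least 1 CPM overlapped (Mcm7, Tk1, Ccne2, Ccna2, Cdca8, Cdc20, Ube2c, Kif20a, Nusap1 and Prc1), and 4 have processed copies (Pcna, Ccnb1, Ccnb2 and Cks1b). Of the copies Pcna-ps2 was highest, at up to 8.86 CPM. Their values are uncertain to that extent.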

How the data were processed

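RNA was enriched with oligo-dT beads and sequenced from non-directional libraries, from samples with an RNA integrity number above 5.0, per the labels' protocols. The deposited estimated counts (not normalized) and the deposited TPM (scaled to the same total in each library) are listed per transcript, per the file headers, and the sources used here do not name the program behind them. The submitters' processing notes name edgeR, limma and GRCm38 without versions. Transcripts were summed per gene with GENCODE M21; those unmatched held at most 0.208% of the counts of a library. Sums were rounded, filtered with filterByExpr (minimum count 10), scaled by TMM and fitted with 1 mean per group over all 23 libraries by edgeR 4.0.16 in R 4.3.3 (robust quasi-likelihood test, two-sided, Benjamini-Hochberg over 19882 genes). The common biological coefficient of variation was 0.805. Rose, fell and called stand for an adjusted p under 0.05. CPM are TMM-scaled, except at the 10 CPM thresholds that define the sets of libraries. For edgeR fits the SE is the absolute log2 fold change divided by the square root of the F statistic of the test. Standard errors and p-values rest on the spread between mice, and counts at this depth limit precision only for members near 0. Replicate numbers are in accession order and pair nothing; the labels do not say more on cages or litters.

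The members, the other pathway lists and the marker lists were chosen with earlier results of these data known. Given library by library are Mki67, Top2a, Cdk1, Ccnb1, Mcm5, Rrm2, Cenpf and Aurka and, in each comparison, the members called (at most the 8 of smallest p) or the 3 of smallest p where none was called. Cenpf was the ninth called under IgG2a. Of the other pathway genes at most 4 per list and direction are named. Members named for their ratio between sets of libraries, or in a single alternative fit, were chosen after their values were seen. Alternatives were DESeq2 1.42.0, its size factors, no filter, at least 1 CPM in 5 libraries, limma-trend (3.58.1) on log2(TPM + 1), lymph node status as a covariate, subsets by Glycam1 and Hmga2, fits with the compared groups only, and fits leaving out 1 library at a time. The promoter sequences are those of RefSeq.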

Additional observations from a re-analysis of the deposited data

Results flagged for a closer look

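In 15 members followed by library, each of the 4 groups was checked for a library far from the others (60 checks), and 13 gave one. Chance gives about 1 in 20, but the genes vary together across the same libraries, so the checks are not independent and the count cannot be read against that share. Of the 13, 12 fell on lean IgG2a 4 and lean anti-PD-1 1, which were also the lean libraries with the most Cd79a (524 and 599 CPM) and both held lymph node. In lean IgG2a 4, Mki67 was at 72.9 CPM (the next value of the group was 22.9), Top2a at 58.2 (16.9), Ccnb1 at 11.5 (2.63), Kif20a at 12.7 (4.54) and Rrm1 at 53.8 CPM (30.3). In lean anti-PD-1 1, Mki67 was at 106 CPM (26.9), Top2a at 63.8 (16.3), Ccnb1 at 16.8 (3.57), Ccne2 at 10.5 (4.04), Kif20a at 14.8 (5.83), Ube2c at 20.7 (5.94) and Rrm1 at 61.5 CPM (33.0).

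The other one was E2f1 in lean anti-PD-1 4, at 16.5 CPM against 9.28 for the next library of its group. That library had neither Glycam1 nor Hmga2 at 10 CPM and the lowest mean of the 44 members (1.87).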

How the results depend on the processing

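The share of all genes called in the same direction moved too and follows each count. For obesity under IgG2a the number of members called, 9 (2.68%), became 20 (5.89%) with DESeq2, 4 (1.4%) without a filter and 14 (2.59%) on log2(TPM + 1). It was 43 (7.49%) with node status as a covariate (median log2 fold change 2.82), and 0 (0.268%) without the Hmga2 libraries. It was 3 (0.746%) with only the groups compared, and 2 to 17 when single libraries were left out. In libraries with Glycam1 under 10 CPM, where 1 lean library stood against the 3 with Hmga2, the median was 2.61. For the antibody in obese mice, 3 (0.533%) became 18 (1.78%) with DESeq2, 1 (0.313%) with at least 1 CPM in 5 libraries and 0 (0%) on log2(TPM + 1). It was 34 (2.69%) with the node covariate, and 0 (0%, median -0.39) with and 36 (3.32%, median -3.05) without lymph node. Without the Hmga2 libraries it was 3 (3.08%, median -1.67), and 0 (0%, median -0.67) with the covariate as well. It was 0 (0%) with only the groups compared, and 0 to 15 when single libraries were left out. For obesity under anti-PD-1, 1 (5.2%) became 0 (0.517%) in node libraries, 3 in libraries with Glycam1 and Hmga2 under 10 CPM (2 upward, 7.99%, and 1 downward, 6.14%; median 0.87), 2 (7.99%) without the Hmga2 libraries and with the covariate, and 0 to 1 when single libraries were left out (medians -0.39 to 0.86, the highest without lean anti-PD-1 1). The interaction median, -1.89, was -0.67 in node libraries, -0.56 without the Hmga2 libraries and with the covariate, and -2.40 to -0.99 when single libraries were left out (-0.99 without lean anti-PD-1 1). The cause of these shifts was not tested.

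In lean mice the antibody comparison kept 0 members called under every alternative with more than 1 library in each group. Its median, -0.07, was 0.25 in node libraries and -0.85 with Glycam1 under 10 CPM, where 1 lean IgG2a library was left. When single libraries were left out it ran from -0.76 (without lean anti-PD-1 1) to 0.44 (without lean IgG2a 4). E2f1 turned to -0.049 there in node libraries, and Ccne2 to -0.31 with Glycam1 under 10 CPM, -0.35 with both genes under 10 CPM, and -0.18 to 0.52 when single libraries were left out. The direction of the member median held under all alternatives run for obesity under IgG2a and for the antibody in obese mice. Only libraries with both Glycam1 and Hmga2 under 10 CPM could give no fit for comparisons that need obese IgG2a mice. No paired analysis was possible because the labels carry no replicate numbers. Members under about 1 CPM in libraries with neither, such as Ttk, are limited by depth there.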

Other observations

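Among the other pathway genes, a few were far apart between the sets of libraries, given here as ratios of medians with no test. These sets also differ in weight and antibody group. Anln, the anillin of the contractile ring, was 15.3 times as high in the 3 Hmga2 libraries as in the 11 with lymph node, Sgo1, a protector of centromeric cohesin, 12.7 times, E2f8, a late repressor of the E2F family, 10.4 times, and Hmmr, a spindle-assembly factor, 8.41 times. Anln was lower with lymph node than with neither (a ratio of 0.46), as was Gtse1 (0.76), while the other 19 of the 21 spindle and cytokinesis genes were higher.

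In the other direction, Cdkn2a, the locus of p16 and Arf, was 37.7 times as high with lymph node as with neither and in the Hmga2 libraries 0.72 times as high as with neither. E2f2, an activating E2F, was 6.11 times as high with lymph node as with neither and 1.85 times as high with Hmga2. Of the 31 licensing and replication genes, Dut, which keeps uracil out of DNA, had the lowest ratio of Hmga2 to node libraries (0.46), close to that of Pcna (0.49).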
